A study of Mus musculus with 9 samples.

Results

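The transcripts described here are those of 10 enzymes of glycolysis, the pathway that splits glucose into pyruvate, with lactate dehydrogenase at its end: Hk2, Gpi1, Pfkp, Aldoa, Tpi1, Gapdh, Pgk1, Pgam1, Eno1 and Ldha. They were chosen by name as glycolytic enzymes with earlier results of these data known. Counts and medians over the list are therefore descriptions and no independent support. Of the 10, 9 were matched to a row of the 14209 genes in the count table. All 9 passed the filter on low counts, as did 12043 genes in all, and Eno1 was not analysed here. The libraries, 3 for each of 3 genotypes, were made from type 2 conventional dendritic cells (cDC2s) of the spleen of C57BL/6 mice. Gα13-deficient cells are labelled as deleted for Gna13, which encodes a G protein alpha subunit, through CD11c-Cre, in which the CD11c promoter drives the recombinase, acting on floxed Gna13. The genotype label of these libraries also names Adgre5-/-. CD97-deficient cells are labelled as knockouts of the adhesion G protein-coupled receptor CD97, encoded by Adgre5 and listed under its older symbol Cd97. Wild-type (WT) cells were the reference for both, so the comparisons with WT share their 3 WT libraries. CD11c is made by dendritic cells in general and by some macrophages, so the deletion was not restricted to cDC2s. Whether the 3 libraries within a genotype represent different mice is not stated in the labels, so p-values measure the spread between libraries only, some of which may be technical. In such bulk samples, fewer cells of a type and less RNA per cell cannot be told apart.

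Glycolysis runs from the phosphorylation of glucose by hexokinase, through the splitting of a hexose bisphosphate into triose phosphates, to reactions that return ATP and NADH. Lactate dehydrogenase then regenerates NAD+ from NADH by reducing pyruvate to lactate. In dendritic cells glycolysis is known to increase on activation by microbial products and to supply carbon for membrane synthesis. Several of these genes are textbook targets of the transcription factors HIF-1, which binds hypoxia response elements, and Myc, which binds E-boxes.

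Promoter sequence is shown for 4 of the genes because the members' levels are compared as a group: for Ldha and Gapdh, higher than WT in both genotypes, for Pgk1, higher in Gα13-deficient cells, and for Hk2, which was not higher in either. Each is the 250 bases before the annotated RefSeq start in GRCm38.p6, 5′ to 3′ on the gene's own strand. Capitals mark ACGTG, a form of the core of the hypoxia response element, or its reverse complement CACGT. The Ldha window is the first of its listed starts, at chr7:46845554-46845803 on the plus strand. The Pgk1 window is chrX:106186850-106187099 on the plus strand. The Hk2 window is chr6:82774455-82774704 and the Gapdh window chr6:125165774-125166023, both on the minus strand.
Ldha: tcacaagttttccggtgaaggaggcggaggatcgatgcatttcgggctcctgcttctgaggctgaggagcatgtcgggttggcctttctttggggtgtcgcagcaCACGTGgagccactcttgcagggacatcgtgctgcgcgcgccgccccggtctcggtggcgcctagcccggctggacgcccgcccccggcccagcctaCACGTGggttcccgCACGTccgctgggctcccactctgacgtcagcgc
Pgk1: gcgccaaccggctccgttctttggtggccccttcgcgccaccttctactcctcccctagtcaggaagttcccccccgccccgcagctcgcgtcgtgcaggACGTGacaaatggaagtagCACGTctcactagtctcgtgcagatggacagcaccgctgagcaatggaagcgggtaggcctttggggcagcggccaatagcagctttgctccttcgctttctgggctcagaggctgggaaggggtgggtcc
Hk2: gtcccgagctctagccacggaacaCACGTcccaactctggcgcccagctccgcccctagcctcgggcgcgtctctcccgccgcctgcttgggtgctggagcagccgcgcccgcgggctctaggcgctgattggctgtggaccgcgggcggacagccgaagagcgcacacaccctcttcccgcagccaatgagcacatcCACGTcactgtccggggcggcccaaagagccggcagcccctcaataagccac
Gapdh: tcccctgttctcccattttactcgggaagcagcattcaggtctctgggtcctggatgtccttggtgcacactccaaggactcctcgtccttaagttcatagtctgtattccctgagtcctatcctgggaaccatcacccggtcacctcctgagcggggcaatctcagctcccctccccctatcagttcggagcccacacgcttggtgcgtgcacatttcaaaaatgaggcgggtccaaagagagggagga
Searched on both strands, ACGTG occurred 5 times in the Ldha window, 2 times each in the Pgk1 and Hk2 windows and 0 times in the Gapdh window. GCGTG, the other form of the core, was not counted, and the Gapdh window holds it. Over all 10 enzymes, 5 had ACGTG in at least 1 window (Hk2, Aldoa, Pgk1, Pgam1 and Ldha), against 18.5% of 27025 genes with such windows. The E-box CACGTG, which holds ACGTG on both strands, was present in 1 of 10 (Ldha, 2 times), against 6.86% of genes. GGGCGG, the GC box, was present in 8 of 10, against 35.4% of genes, and TATAAA, the TATA box, in 0 of 10, against 14.3%. A gene with more listed starts has more windows in which a match can occur, and Aldoa and Eno1 have 3 each. The ACGTG of Aldoa and the GC boxes of Aldoa and Eno1 lay only in windows after the first. The shares of all genes were not matched for number of windows, expression or GC content. These matches are descriptions of the letters and not of binding. Of the genes with ACGTG, Pgk1 and Ldha were called higher than WT in at least 1 comparison. Hk2, Aldoa and Pgam1 were called in neither. Any part of the motifs in the levels was not tested.

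Total counts per library ran from 5679946 to 13904646, so that 3 counts corresponded to 0.216 to 0.528 counts per 1000000 (CPM). Levels are given as CPM scaled by TMM, a normalisation that aligns libraries on the bulk of their genes. Gna13 had 114, 96.8 and 91.7 CPM in Gα13-deficient libraries, 227, 217 and 246 CPM in CD97-deficient libraries and 227, 228 and 186 CPM in WT libraries, a log2 fold change of -1.09 ± 0.11 (SE) for Gα13-deficient cells over WT (edgeR quasi-likelihood test with Benjamini-Hochberg adjustment, adjusted p = 6.84e-05). Cd97 had 1145, 1224 and 1016 CPM in Gα13-deficient libraries, 726, 840 and 438 CPM in CD97-deficient libraries and 1506, 899 and 1299 CPM in WT libraries. Its fold change over WT was -0.89 ± 0.28 in CD97-deficient cells (edgeR, adjusted p = 0.105) and -0.13 in Gα13-deficient cells (adjusted p = 0.816), and the Gα13-deficient and WT libraries overlapped. All 3 CD97-deficient libraries were below all WT libraries. The labels do not say which part of Cd97 was deleted. Xist and Y-linked genes gave a female pattern in Gα13-deficient replicate 2, all 3 CD97-deficient libraries and WT replicate 2, and a male pattern in the other libraries. All 12 markers of cDC2s were measured, none at 0 throughout a group, with summed levels of 10439 to 11428 CPM in Gα13-deficient, 10019 to 10289 CPM in CD97-deficient and 10400 to 11678 CPM in WT libraries. Their median log2 fold change over WT was -0.21 in Gα13-deficient cells, with 3 of 12 positive (2 rose and 3 fell, beside 5.74% and 5.24% of all genes). It was -0.18 in CD97-deficient cells, with 1 of 12 positive (0 called, beside 4.84% of all genes that rose and 3.69% that fell). The values ran from -0.97 to 0.42 and from -1.67 to 0.085. The part of the cDC2 markers in the results was not tested. Markers of other cells were present at lower sums. The 7 monocyte markers, none at 0 throughout a group, summed to 392 to 467 CPM in Gα13-deficient, 261 to 468 CPM in CD97-deficient and 236 to 434 CPM in WT libraries, with median log2 fold changes over WT of 1.01 in Gα13-deficient cells (1 of 7 rose, Cx3cr1) and 0.12 in CD97-deficient cells (0 of 7 called). The part of the monocyte markers in the results was not tested. The 15 macrophage markers, none at 0 throughout a group, summed to 929 to 1299 CPM, 827 to 2193 CPM and 703 to 1678 CPM in the Gα13-deficient, CD97-deficient and WT libraries. Their median log2 fold change over WT was 0.16 in Gα13-deficient cells, with 10 of 15 positive (0 rose and 1 fell). In CD97-deficient cells the macrophage median was 0.89, with 14 of 15 positive (1 rose and 1 fell). The 7 plasmacytoid dendritic cell markers, again with none at 0 throughout a group, summed to 360 to 457 CPM, 322 to 373 CPM and 229 to 330 CPM in the same order. Their median over WT was 0.57 in Gα13-deficient cells, with 7 of 7 positive (1 rose). In CD97-deficient cells it was 0.24, with 4 of 7 positive (0 called). The part of the plasmacytoid dendritic cell markers in the results was not tested.

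Glycolytic transcripts were higher in both deficient genotypes than in WT for a subset of the enzymes, of which Gapdh and Ldha passed the test in both. In Gα13-deficient cells 3 of the 9 measured enzymes rose (Gapdh, Pgk1 and Ldha) and 0 fell, at an adjusted p under 0.05 over all genes tested. In CD97-deficient cells 3 of 9 rose (Pfkp, Gapdh and Ldha) and 0 fell. Among all 12043 genes tested, 5.74% rose and 5.24% fell in Gα13-deficient cells, and 4.84% rose and 3.69% fell in CD97-deficient cells. The sign of the fold change was positive for 8 of 9 enzymes in each comparison, Hk2 being the exception in both. The median log2 fold change of the 9 was 0.34 in Gα13-deficient and 0.37 in CD97-deficient cells, beside -0.0083 and -0.0034 over all genes tested. At an unadjusted p under 0.05 there were 7 of 9 enzymes in Gα13-deficient cells, beside 3111 of all 12043 genes, and 4 of 9 in CD97-deficient cells, beside 2946. With library totals in place of TMM the split of all genes called moved to 861 higher and 523 lower in Gα13-deficient cells, beside 691 and 631 with TMM, and to 774 and 331 in CD97-deficient cells, beside 583 and 444, while the same 3 members were called in each comparison.

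**Figure D1:**
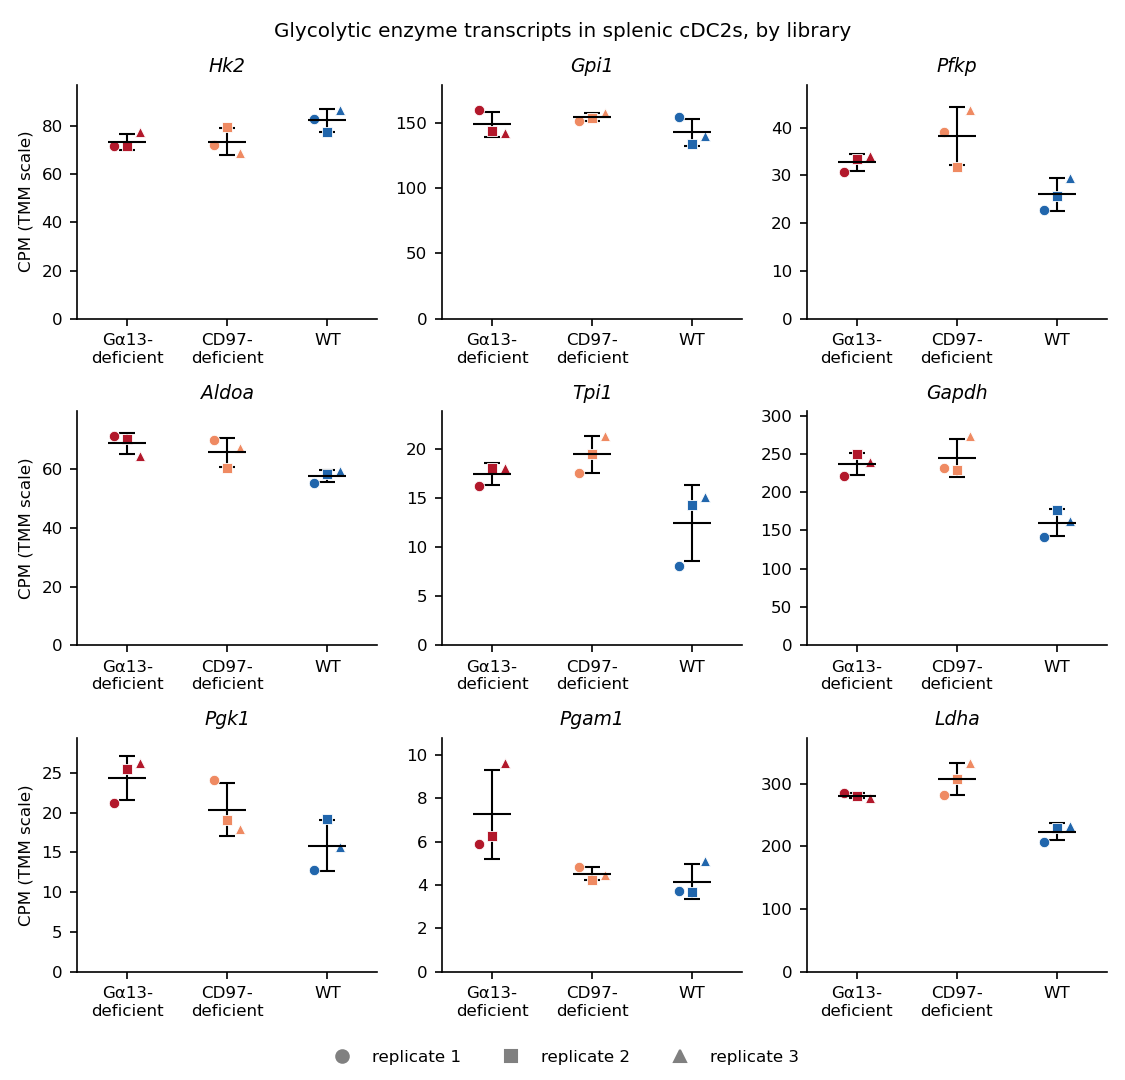
Levels of the 9 measured enzymes in CPM on the TMM scale, by library, in Gα13-deficient, CD97-deficient and WT cDC2s; each point is 1 library, the horizontal line is the mean and the bar is ± 1 SD (n = 3). The 3 Gapdh points and the 3 Ldha points of each deficient group lie above all WT points, while the Gpi1 groups overlap.

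In the preparatory steps, Hk2, the inducible hexokinase that traps glucose as glucose 6-phosphate, had 71.7, 71.8 and 77.5 CPM in Gα13-deficient libraries, 72.2, 79.9 and 68.9 CPM in CD97-deficient libraries and 83.0, 77.6 and 86.97 CPM in WT libraries. The WT libraries sat at the upper end, with all 3 Gα13-deficient libraries just under the lowest WT library and CD97-deficient replicate 2 inside the WT range. Its log2 fold change was -0.16 ± 0.10 (SE) over WT in both genotypes (edgeR, adjusted p = 0.310 in Gα13-deficient and 0.316 in CD97-deficient cells). Gpi1, glucose phosphate isomerase, had 159.9, 143.4 and 142.2 CPM in Gα13-deficient libraries, 151.1, 153.5 and 157.4 CPM in CD97-deficient libraries and 154.0, 133.7 and 139.5 CPM in WT libraries, and the groups overlapped. Its fold changes of 0.06 ± 0.09 and 0.11 ± 0.09 in Gα13-deficient and CD97-deficient cells did not pass the test (edgeR, adjusted p = 0.715 and 0.456).

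Pfkp, the platelet-type subunit of phosphofructokinase, the committed step of the pathway, had 30.7, 33.4 and 34.1 CPM in Gα13-deficient libraries, 39.0, 31.8 and 43.8 CPM in CD97-deficient libraries and 22.8, 25.7 and 29.6 CPM in WT libraries. Neither deficient group overlapped WT, but the gap between Gα13-deficient replicate 1 and WT replicate 3 was small. Pfkp rose 1.48-fold in CD97-deficient cells (log2 0.56 ± 0.14, edgeR adjusted p = 0.0265), while its value of 0.34 ± 0.15 in Gα13-deficient cells did not pass (adjusted p = 0.156). The CD97-deficient call was lost without CD97-deficient replicate 1 (adjusted p = 0.0820), without CD97-deficient replicate 3 (0.142) or without WT replicate 1 (0.119), and with sex pattern (0.164) or macrophage marker level (0.104) as a covariate.

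Aldoa, the aldolase that splits fructose bisphosphate, had 71.2, 70.4 and 64.5 CPM in Gα13-deficient libraries, 69.8, 60.2 and 67.0 CPM in CD97-deficient libraries and 55.2, 58.3 and 59.5 CPM in WT libraries. All 6 deficient libraries were above the highest WT library, by less than 1 CPM for CD97-deficient replicate 2. The fold changes were 0.25 ± 0.10 and 0.19 ± 0.10 on the log2 scale in Gα13-deficient and CD97-deficient cells and did not pass the test (edgeR, adjusted p = 0.115 and 0.252). Tpi1, which interconverts the triose phosphates, had 16.2, 18.1 and 18.1 CPM in Gα13-deficient libraries, 17.6, 19.5 and 21.3 CPM in CD97-deficient libraries and 8.07, 14.3 and 15.1 CPM in WT libraries. Neither deficient group overlapped WT, the deficient groups overlapped each other, and WT replicate 1 was far below the other WT libraries. The values of 0.50 ± 0.21 and 0.66 ± 0.21 missed the threshold (edgeR, adjusted p = 0.145 in Gα13-deficient and 0.0657 in CD97-deficient cells). In CD97-deficient cells Tpi1 passed without WT replicate 2 (adjusted p = 0.0480), without WT replicate 3 (0.0420), and with DESeq2 (0.0390). Without WT replicate 1 the Tpi1 values were 0.25 in Gα13-deficient cells (adjusted p = 0.436) and 0.40 in CD97-deficient cells (adjusted p = 0.238).

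In the payoff steps, Gapdh, glyceraldehyde 3-phosphate dehydrogenase and often a normalisation control in expression work, had 221, 250.3 and 239 CPM in Gα13-deficient libraries, 231, 229.6 and 273 CPM in CD97-deficient libraries and 142, 176 and 163 CPM in WT libraries. The lowest deficient library was well above the highest WT library. The group means were 237 ± 14.6, 245 ± 24.7 and 160.4 ± 17.3 CPM (SD, n = 3 each) in Gα13-deficient, CD97-deficient and WT cells. Gapdh rose 1.48-fold in Gα13-deficient cells (log2 0.56 ± 0.10, edgeR adjusted p = 0.00233) and 1.53-fold in CD97-deficient cells (log2 0.61 ± 0.10, adjusted p = 0.00195). Both calls held in 9 of 9 fits that left out 1 library, with adjusted p no higher than 0.0168 and 0.0163. With sex pattern as a covariate the adjusted p was 0.00179 in Gα13-deficient cells and 0.0423 in CD97-deficient cells.

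Pgk1, phosphoglycerate kinase, which makes the first ATP of the payoff phase, had 21.2, 25.6 and 26.3 CPM in Gα13-deficient libraries, 24.1, 19.0 and 17.99 CPM in CD97-deficient libraries and 12.8, 19.2 and 15.6 CPM in WT libraries. The Gα13-deficient libraries were all above WT, while CD97-deficient replicates 2 and 3 were below the highest WT library. Pgk1 rose 1.54-fold in Gα13-deficient cells (log2 0.62 ± 0.18, edgeR adjusted p = 0.0398), and its value in CD97-deficient cells was 0.37 ± 0.18 (adjusted p = 0.237). That call held in 4 of 9 fits that left out 1 library, being lost without Gα13-deficient replicate 2 (adjusted p = 0.121), Gα13-deficient replicate 3 (0.116), CD97-deficient replicate 2 (0.0549), WT replicate 1 (0.148) or WT replicate 3 (0.0828). It was also lost in the fit on the libraries of these 2 groups alone (0.0607) and with the macrophage marker level as a covariate (0.0506). Pgk1 lies on the X chromosome. Pgk1 had an adjusted p of 0.0314 with sex pattern as a covariate in Gα13-deficient cells.

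Pgam1, phosphoglycerate mutase, was the lowest of the members, with 52, 36 and 135 counts in Gα13-deficient libraries, 41, 29 and 40 counts in CD97-deficient libraries and 34, 27 and 30 counts in WT libraries. On the CPM scale it had 5.91, 6.26 and 9.64 in Gα13-deficient libraries, 4.85, 4.25 and 4.47 in CD97-deficient libraries and 3.71, 3.67 and 5.10 in WT libraries. The Gα13-deficient libraries lay above all others, most of all replicate 3, and the CD97-deficient and WT libraries overlapped. The log2 fold change of 0.84 ± 0.28 in Gα13-deficient cells did not pass the test (edgeR, adjusted p = 0.0673; 0.56 and 0.304 without Gα13-deficient replicate 3), nor did 0.14 ± 0.29 in CD97-deficient cells (adjusted p = 0.811). Ldha, the lactate dehydrogenase A subunit, had 285, 280.4 and 277 CPM in Gα13-deficient libraries, 282, 308 and 333 CPM in CD97-deficient libraries and 208, 229 and 233 CPM in WT libraries. The deficient libraries were all above WT, and the 3 Gα13-deficient libraries were close together. Ldha rose 1.26-fold in Gα13-deficient cells (log2 0.33 ± 0.08, edgeR adjusted p = 0.0184) and 1.38-fold in CD97-deficient cells (log2 0.46 ± 0.08, adjusted p = 0.0035). In Gα13-deficient cells the call was lost without Gα13-deficient replicate 1 (adjusted p = 0.0600), Gα13-deficient replicate 2 (0.0640) or WT replicate 1 (0.0551). In CD97-deficient cells it held in 9 of 9 such fits and missed with sex pattern as a covariate (0.0514).

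**Figure D2:**
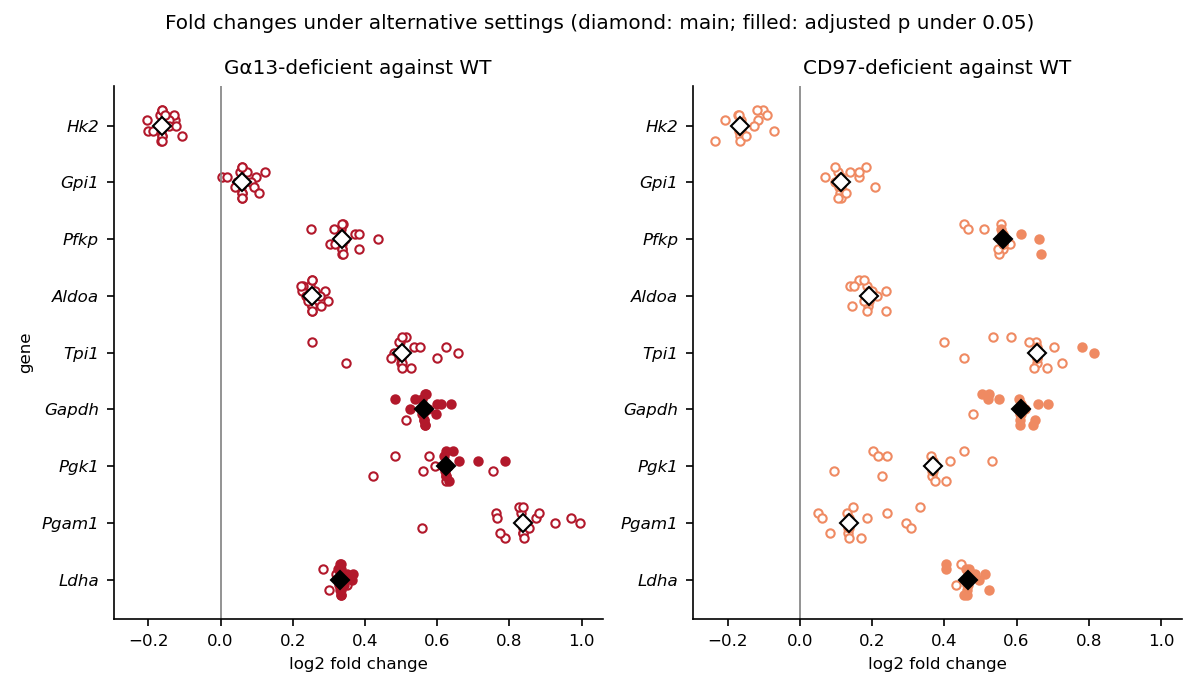
Log2 fold changes over WT of the 9 enzymes under the main setting (diamond) and each alternative (circles), for Gα13-deficient cells (left) and CD97-deficient cells (right); filled symbols have an adjusted p under 0.05. All circles of a gene lie on 1 side of 0, and Gapdh is filled in nearly every setting.

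Every library of the deficient group exceeded every WT library for 7 of 9 enzymes in Gα13-deficient cells (all but Hk2 and Gpi1), against 15.5% of all genes tested, and for 5 of 9 in CD97-deficient cells (Pfkp, Aldoa, Tpi1, Gapdh and Ldha), against 14.7%. The 9 enzymes together took 0.0879%, 0.0911% and 0.0895% of all counts in Gα13-deficient libraries, 0.0898%, 0.0909% and 0.102% in CD97-deficient libraries and 0.0659%, 0.0723% and 0.0748% in WT libraries. The WT libraries thus all lay below the deficient ones in this summed share, to which Gapdh and Ldha contribute most. CD97-deficient libraries all have the female pattern and WT has 1 such library, so sex pattern and genotype are largely confounded there. In the fit with sex pattern as a covariate, Gapdh alone of the 3 members called in CD97-deficient cells kept an adjusted p under 0.05, and all 3 did in Gα13-deficient cells. Among female-pattern libraries alone, an alternative added after seeing the data, 0 of 9 members were called in either comparison, with log2 fold changes of Gapdh of 0.51 in Gα13-deficient cells (adjusted p = 0.103) and 0.48 in CD97-deficient cells (adjusted p = 0.0661). That fit had 1 WT and 1 Gα13-deficient library, and the lone libraries are assumed to vary like the other group. Among male-pattern libraries alone, 1 of 9 was called in Gα13-deficient cells (Gapdh, adjusted p = 0.0306).

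The direct comparison of Gα13-deficient with CD97-deficient cells called 0 of 9 enzymes, against 0.0498% of all genes (6 of 12043). By DESeq2 the count of members called was also 0. At an unadjusted p under 0.05 there was 1 of 9, Pgam1, and 722 of all genes. The Pgam1 difference was 0.70 ± 0.27 on the log2 scale (95% interval 0.12 to 1.28, edgeR adjusted p = 0.740, unadjusted 0.0218), and all 3 Gα13-deficient libraries were above the CD97-deficient ones. For Gapdh the difference was -0.05 (interval -0.26 to 0.16), for Ldha -0.13 (-0.31 to 0.043), for Pgk1 0.26 (-0.13 to 0.64) and for Pfkp -0.23 (-0.53 to 0.077). The intervals of Hk2, Gpi1, Aldoa and Tpi1 also included 0, around differences of 0.0024, -0.05, 0.06 and -0.16. A missed threshold does not show that the genotypes are alike, and the intervals give the sizes that remain possible at 3 libraries per group.

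Levels between genes were compared as CPM per kilobase of exon sequence (all annotated exons of a gene joined, GENCODE release M21 on mm10). The highest was Ldha in every group, with means of 84.8, 93.0 and 67.4 CPM per kilobase in Gα13-deficient, CD97-deficient and WT cells. Gapdh came next at 57.4, 59.2 and 38.8 in the same groups, and it did not overlap its neighbours in the order. In WT cells there followed Gpi1 at 22.1, Aldoa at 19.8, Hk2 at 13.8, Pgk1 at 7.06, Tpi1 at 4.54, Pgam1 at 2.10 and Pfkp at 1.94 CPM per kilobase, and only the last 2 overlapped. Aldoa and Gpi1 overlapped in both deficient groups, at 23.6 and 23.0 in Gα13-deficient and 22.6 and 23.9 in CD97-deficient cells. Pfkp has 13401 annotated exon bases, which places it low on this scale. A count of the bases that these cells use was not made here for any gene. Sequence shared with other genes was not corrected for either. It covers 58.4% of the 50-base transcript stretches of Gapdh, 68.0% of Pgk1 and 41.5% of Pgam1, against 10.4% of Ldha. The order of the genes, Ldha before Gapdh included, is therefore uncertain.

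**Figure D3:**
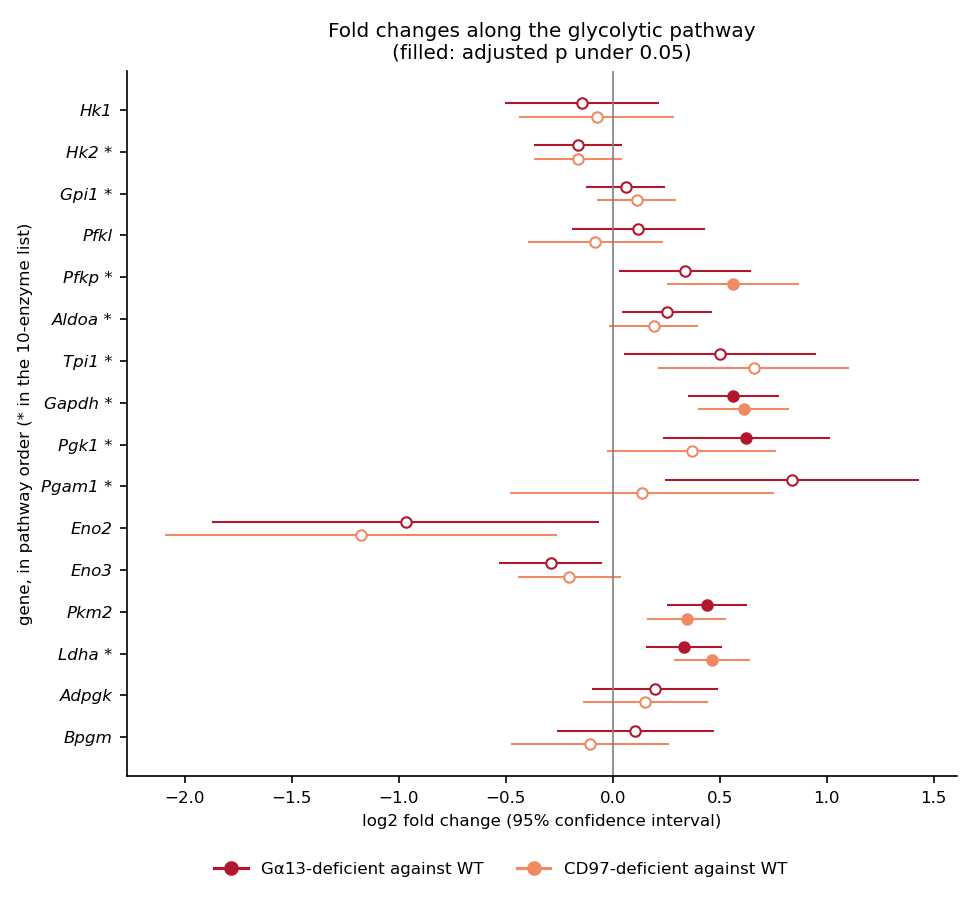
Log2 fold changes over WT, with 95% confidence intervals, for the 9 measured enzymes (asterisks) and 7 further glycolytic genes in pathway order, Gα13-deficient cells above CD97-deficient cells in each pair; filled points have an adjusted p under 0.05. Gapdh, Ldha and Pkm2 are filled for both genotypes, and the hexokinases and Gpi1 lie near 0.

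Most other glycolytic enzymes and isozymes were not called. Of the 13 tested, 1 rose and 0 fell in each comparison, a share to set beside the 5.74% and 4.84% of all genes that rose, with median log2 fold changes of 0.11 in Gα13-deficient and -0.08 in CD97-deficient cells. The one that rose in both was pyruvate kinase, listed under the older symbol Pkm2, which makes pyruvate and ATP (log2 0.44 ± 0.09, edgeR adjusted p = 0.00482 in Gα13-deficient cells, and 0.34 ± 0.09, adjusted p = 0.0251 in CD97-deficient cells). Its CD97-deficient call held in 5 of 9 fits that left out 1 library, with the highest adjusted p of 0.105 without CD97-deficient replicate 3, and was lost with sex pattern (0.159) or macrophage level (0.0916) as a covariate. The isozymes of members were not called: Hk1 was at -0.14 and -0.08 and Pfkl at 0.12 and -0.08 in Gα13-deficient and CD97-deficient cells. The enolases measured were the neuronal Eno2, at -0.97 ± 0.41 and -1.18 ± 0.41 (edgeR, adjusted p = 0.164 and 0.109), and the muscle Eno3, at -0.29 and -0.20. Adpgk, an ADP-dependent glucokinase, was at 0.20 and 0.15, and Bpgm, which makes 2,3-bisphosphoglycerate, at 0.11 and -0.10. The signs of Hk1, Pfkl and Bpgm turned under some alternatives.

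For genes of glucose transport and of the control of the pathway, counts called stand beside the shares of all genes. In Gα13-deficient cells 5.74% of all genes rose and 5.24% fell, and in CD97-deficient cells 4.84% rose and 3.69% fell. At such shares, few calls in lists of 8 to 18 genes are no result about those genes. Of 8 glucose and lactate transporters, 0 were called in either comparison, with medians of -0.15 and -0.05. Of 12 regulators of glycolytic flux, 0 rose, 1 fell in Gα13-deficient cells and 2 fell in CD97-deficient cells, beside 5.24% and 3.69% of all genes that fell. Pfkfb3, whose product makes the phosphofructokinase activator fructose 2,6-bisphosphate, fell in both (log2 -0.58 ± 0.15, edgeR adjusted p = 0.0275, and -0.63 ± 0.15, adjusted p = 0.0232). Those calls held in 7 of 9 and 6 of 9 fits leaving out 1 library, the highest adjusted p being 0.0582 without Gα13-deficient replicate 2 and 0.0904 without CD97-deficient replicate 3. Mlxip, a glucose-sensing transcription factor, fell in CD97-deficient cells (-0.43, adjusted p = 0.0383, 0.129 without WT replicate 1) and was at -0.31 in Gα13-deficient cells (adjusted p = 0.108). Among 18 other textbook HIF targets, 1 rose and 1 fell in Gα13-deficient cells and 0 were called in CD97-deficient cells, with medians of -0.08 and -0.15. They were Ndrg1, a hypoxia-induced gene (0.89, adjusted p = 0.0387, 0.144 without WT replicate 1), and Kdm3a, a histone demethylase, which fell (-0.53, adjusted p = 0.0082).

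For the pathways that branch from glycolysis, the counts that rose stand beside 5.74% of all genes in Gα13-deficient and 4.84% in CD97-deficient cells. Of 8 pentose phosphate genes, 2 rose in each comparison and 0 fell, with medians of 0.20 in Gα13-deficient and 0.16 in CD97-deficient cells. Tkt, transketolase, which exchanges carbon with glycolysis, rose in both (0.53 ± 0.11, edgeR adjusted p = 0.00547, and 0.62 ± 0.11, adjusted p = 0.00274), in 9 of 9 fits leaving out 1 library each. Pgd rose in Gα13-deficient cells (0.48, adjusted p = 0.0188) and Taldo1, transaldolase, in CD97-deficient cells (0.31, adjusted p = 0.0421). In the serine, glycerol and hexosamine branches, 3 of 11 rose and 1 fell in Gα13-deficient cells and 4 of 11 rose in CD97-deficient cells, with medians of 0.27 and 0.37. Psat1, a serine synthesis aminotransferase, stood at 0.87 and 0.89 (adjusted p = 0.0110 and 0.0129), Shmt2, the mitochondrial serine hydroxymethyltransferase, at 0.53 and 0.75 (0.0422 and 0.00946), and Gpd2, of the glycerol phosphate shuttle, at 0.27 and 0.37 (0.0454 and 0.0111). With the replicate number as a block, Shmt2 and Gpd2 missed the threshold in Gα13-deficient cells (edgeR, adjusted p = 0.0565 and 0.0964). Gfpt1, the entry enzyme of hexosamine synthesis, fell in Gα13-deficient cells (-0.41, adjusted p = 0.0128). Of 27 genes of pyruvate entry and the TCA cycle, 2 rose in Gα13-deficient and 5 in CD97-deficient cells and 0 fell, with medians of 0.19 and 0.22, and the count in Gα13-deficient cells is near the share of all genes. Idh2, mitochondrial isocitrate dehydrogenase, rose in both (0.49, adjusted p = 0.0217, and 0.62, adjusted p = 0.00796). Fh1, fumarate hydratase, and Ogdh, a subunit of oxoglutarate dehydrogenase, rose in CD97-deficient cells by 0.40 and 0.30 on the log2 scale (edgeR, adjusted p = 0.0194 and 0.0387). Of 11 gluconeogenesis and glycogen genes, 0 rose in Gα13-deficient cells and 1 rose in CD97-deficient cells (Pygb, a glycogen phosphorylase, 0.44, adjusted p = 0.0218), with medians of -0.15 and -0.04. Of the calls on named non-member pathway and cell cycle genes, 8 of 16 held in all leave-one-out fits in Gα13-deficient cells and 6 of 17 in CD97-deficient cells, and 15 of 16 and 5 of 17 held with sex pattern as a covariate.

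**Figure D4:**
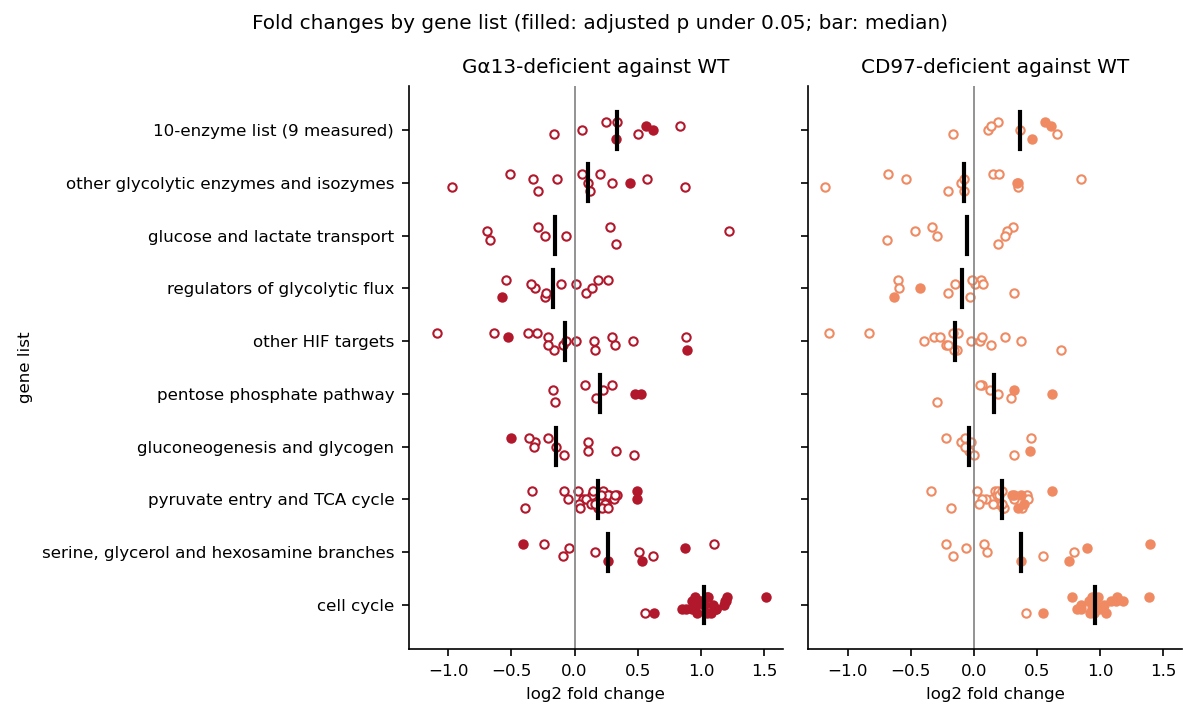
Log2 fold changes over WT of each tested gene in 10 gene lists, in Gα13-deficient cells (left) and CD97-deficient cells (right); 1 circle is 1 gene, filled circles have an adjusted p under 0.05, and the bar is the list's median. The glycolytic list has medians of 0.34 and 0.37, and the cell cycle list lies furthest to the right at 1.02 and 0.96.

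Cell cycle genes rose in both genotypes. Of 25, 24 rose in each comparison and 0 fell, with median log2 fold changes of 1.02 in Gα13-deficient and 0.96 in CD97-deficient cells, among them Rrm1, a ribonucleotide reductase subunit (0.98 and 0.96), and Plk1, a mitotic kinase (1.51 and 1.39). The mean level of the list per library, on a centred log2 scale, was 0.19, 0.40 and 0.50 in Gα13-deficient, 0.34, 0.21 and 0.35 in CD97-deficient and -0.76, -0.37 and -0.86 in WT libraries. The part of the cell cycle level in the glycolytic differences was not tested. The macrophage marker level was -0.04, 0.38 and -0.38 in Gα13-deficient, 1.23, -0.67 and 0.73 in CD97-deficient and -0.82, 0.82 and -1.25 in WT libraries on the same scale. With it as a covariate, Gapdh had an adjusted p of 0.00317 in Gα13-deficient and 0.00898 in CD97-deficient cells, and Ldha of 0.0266 and 0.0119. The genes whose profile over the 9 libraries was most like the mean profile of the members, among 6879 candidates, were Fbxo5, an inhibitor of the anaphase-promoting complex (Pearson r = 0.99), Ttf2 (0.98), Fen1, a flap endonuclease (0.98), Ubap2 (0.98) and Rfwd3, a ubiquitin ligase (0.97). All 5 were called higher in both comparisons with WT, and with sex pattern as a covariate 0 of 5 were in CD97-deficient cells. The group differences enter each r, so these values describe the 9 libraries together. The members' mean profile was lower in all WT libraries (-1.13, -0.77 and -0.41) than in the deficient ones (0.21 to 0.52). The calls of these 5 genes thus follow largely from how they were picked and are no separate support.

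Among the members themselves, 26 of 36 pairs had a positive Pearson r over the 9 libraries, with a median of 0.48 and a range from -0.84 (Hk2 with Aldoa) to 0.95 (Gapdh with Ldha). Against the mean of the other members, r was 0.93 for Gapdh, 0.87 for Ldha, 0.83 for Pfkp and for Tpi1, 0.78 for Aldoa, 0.68 for Pgk1, 0.50 for Pgam1, 0.15 for Gpi1 and -0.77 for Hk2. These values rest on differences between groups as well as on differences between libraries.

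Some of these counts are uncertain because of sequence shared with other genes. The share of a gene's 50-base transcript stretches that also occur in transcripts of genes with another name was 68.0% for Pgk1 (5 other genes), 58.4% for Gapdh (222), 41.5% for Pgam1 (4), 24.5% for Gpi1 (122), 15.4% for Pfkp (1), 10.4% for Ldha (14), 6.83% for Tpi1 (2), 6.57% for Aldoa (6) and 0% for Hk2. Neither read length nor the treatment of reads matching several places is stated, so Pgk1, Gapdh and Pgam1 counts in particular may include or lack reads of copies. Exons of Gpi1, Pfkp, Aldoa, Tpi1 and Gapdh also overlap exons of another gene on the opposite strand, by 741, 748, 25, 34 and 68 bases, and whether counting used strand is not stated. Positions on mm10 are chr6:82725025-82774454 for Hk2, chr7:34201330-34230336 for Gpi1, chr13:6579768-6648777 for Pfkp, chr7:126795234-126800751 for Aldoa, chr6:124810586-124814296 for Tpi1, chr6:125161715-125166467 for Gapdh, chrX:106187100-106203699 for Pgk1, chr19:41911923-41918660 for Pgam1 and chr7:46841475-46855627 for Ldha. The table gives 1 value per gene and library, so no exon or UTR is set apart.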

How the data were processed

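For 9 libraries, the authors deposited raw counts per gene. The submitters' processing notes name STAR, HTSeq, DESeq2 and the mm10 build, with no versions. Libraries followed standard Illumina protocols, per the labels, and whether counting used strand is not stated there. The table has 14209 genes, none with a total under 10 counts, and no row that names no gene. Groups came from the sample titles; WT columns were matched through the source names, which number WT differently from the titles. The members and all gene lists were chosen with earlier results of these data known.

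Counts were tested with edgeR 4.0.16 (R 4.3.3): TMM scaling, filterByExpr, which removed 2166 genes, and a quasi-likelihood F-test over all 9 libraries with genotype as the factor, adjusted by Benjamini-Hochberg over 12043 genes at 0.05. The common biological coefficient of variation was 0.15. Named genes were all members, up to 4 called genes per other list, further glycolytic genes of at least 10 CPM, and the 5 genes most like the members' mean profile at a mean log2 CPM of at least 4. DESeq2 1.42.0, other scalings, no filter, covariates for sex pattern and macrophage level, a replicate block, and leaving out each library were tried as alternatives. Libraries of the same title number deviated together for Gα13-deficient and WT (r 0.11 to 0.18 in 3 of 3 pairs). They did not for CD97-deficient and WT (0 of 3 above 0.1). The labels do not say that a number marks a shared animal. With WT numbered by its source names, r for the pairs numbered 2 and 3 was 0.12 and 0.12 for CD97-deficient and WT. It was -0.12 and -0.064 for Gα13-deficient and WT. A CD97-deficient and WT pair sharing neither number reached 0.22. On simulated counts of the CD97-deficient comparison (11887 genes), the test called 27 of 67 genes given a 1.5-fold change. It called 41 of 66 given 2-fold, 60 of 66 given 4-fold and 14 given none. Each gene was drawn independently, with no differences in sex pattern, macrophage level or other features shared within a library. These counts therefore do not give the error rate in the real libraries. Promoter windows are RefSeq GRCm38.p6 and gene positions GENCODE release M21. Results for some genes of the other pathway lists are not reported here.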

Additional observations from a re-analysis of the deposited data

How the results depend on the processing

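Over 333 refitted values of the 9 enzymes against WT, all 333 kept their sign, 304 kept their side of the threshold, 26 lost the call and 3 gained it. Many of the 304 belong to enzymes that were not called in the main fit. The 26 losses all fell on calls of the main fit, 11 in CD97-deficient and 15 in Gα13-deficient cells. Of the 3 member calls in each comparison, 2 in CD97-deficient and 1 in Gα13-deficient cells held in all leave-one-out fits. The genes called in CD97-deficient cells over WT, 1027, were 222 with sex pattern as a covariate, 513 with macrophage level, 233 in female-pattern libraries, and 364 to 1271 when 1 library was left out. In Gα13-deficient cells over WT, 1322 genes became 611 in male-pattern libraries, 255 in female-pattern libraries, and 693 to 1459 when 1 library was left out. In the direct comparison, 6 became 11 without the filter, 54 with DESeq2, 53 with libraries of these groups only, 73 with the replicate block, 14 with macrophage level, 24 in female-pattern libraries, and 4 to 25 with 1 library left out. Of the 9 enzymes, 3 called in CD97-deficient cells became 1 with sex pattern, 0 in female-pattern libraries and 2 to 4 with 1 library left out; the 3 in Gα13-deficient cells became 1 in male-pattern libraries, 0 in female-pattern libraries and 1 to 3. The direct count of members was 0 in every setting run. With the replicate block, by title number, the calls of members in Gα13-deficient cells were unchanged (3). Those of Gpd2 (edgeR, adjusted p = 0.0964), Shmt2 (0.0565) and Ubap2 (0.0552) were lost, and no other call on a named gene there. The labels do not say what a number marks. In CD97-deficient cells calls held for 2 of 3 members, 13 of 17 other pathway genes and 2 of 5 similar genes. Among those lost were Pfkp (0.0501), Pkm2 (0.0562), Taldo1 (0.0610), Ogdh (0.0899), Fen1 (0.0849), Rfwd3 (0.0599) and Ttf2 (0.0502). Eno2 gained a call there (0.0179). Signs near 0 turned as follows. The direct difference of Hk2 was -0.0084 with library totals, -0.0026 in these 2 groups alone, -0.0011 with the replicate block, -0.061 with sex pattern, -0.036 with macrophage level, -0.033 in female-pattern libraries and -0.043 to 0.073 with 1 library left out; that of Gapdh was 0.063 with sex pattern, 0.034 in female-pattern libraries and -0.087 to 0.040 with 1 library left out. In CD97-deficient cells Pfkl was 0.011 with sex pattern, 0.19 in female-pattern libraries and -0.20 to 0.015 with 1 library left out (highest without WT replicate 1), Hk1 0.041 with macrophage level, 0.042 in female-pattern libraries and -0.24 to 0.15 (highest without WT replicate 3), and Bpgm -0.17 to 0.022 (highest without WT replicate 2). In Gα13-deficient cells Pfkl was -0.036 in male-pattern libraries and -5.82e-05 to 0.23 with 1 library left out (lowest without WT replicate 2), Hk1 0.087 in female-pattern libraries and -0.29 to 0.085 (highest without WT replicate 3), and Bpgm -0.28 in female-pattern libraries and -0.063 to 0.23 (lowest without Gα13-deficient replicate 3). For these changes the cause was not tested. Depth limits Pgam1 most, with as few as 27 counts in a library. Single-sex fits were chosen after seeing the data.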
